A study of Mus musculus with 4 samples.

Results

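Desmosome genes were examined in stem cells of the mouse hair follicle, as the accessible chromatin regions that lie in or near 10 of them. The 10 genes are the desmocollins Dsc1, Dsc2 and Dsc3, the desmogleins Dsg2, Dsg3 and Dsg4, and the plaque genes Dsp, Jup, Pkp1 and Pkp3. Their regions were all entries of the ATAC-seq list that share at least 1 base with the RefSeq GRCm38 bounds of a gene extended by 50 kb on either side. This gave 77 regions of 74777 in the list, and the 10 genes stand among 21887 protein-coding genes. The region farthest from its gene but inside a window lay 49331 bp from Pkp1 and was 1987 bp wide, and the nearest one outside lay 50965 bp from Dsg4 and was 1463 bp wide.

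ATAC-seq marks open DNA by where the transposase Tn5 can insert adapters. Back skin of female mice aged 30 days after birth was the source, and the cells were sorted for a histone reporter under the keratin 14 promoter (K14-H2BGFP), for CD34 and for CD49f, and against Sca-1. One genotype, K14-H2BGFP with K14Cre and Foxc1 fl/fl, loses the forkhead factor gene Foxc1 in keratin 14 expressing cells and their descendants, and the control carried K14-H2BGFP and Foxc1 fl/fl without the recombinase, so that reporter and floxed alleles were shared by both. Each genotype was 1 library sequenced in 2 runs, and 1 list of regions serves all 4 runs, which gives mm10 positions without any score, number of reads or genotype. No value can therefore be given to a genotype, there are no replicates and no test was made, and the depth is unknown. A region in the list does not tell in what share of the sorted cells the DNA was open.

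Desmosomes are the spot-like junctions that tie the keratin filaments of one epithelial cell to those of the next. Desmogleins and desmocollins are cadherins that meet between the cells. Inside each cell their tails bind plakoglobin (Jup) and the plakophilins (Pkp genes), and these hold desmoplakin (Dsp), which grips the keratins. In skin, Dsg3 and Dsc3 are known for the basal layers, Dsc1 and the Dsg1 genes for the upper layers, and Dsg4 for the hair shaft. Mice that lack Dsg3 are known to lose their resting hairs, which anchor beside the stem cells studied here.

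The labelled cell type was checked by gene ends, where an end peak means a region no more than 1000 bp from the lower or upper bound of a gene. All 8 marker genes of hair follicle stem cells and basal keratinocytes had one (Cd34, Itga6, Krt15, Lgr5, Sox9, Lhx2, Krt5 and Krt14), beside 57.6% of all protein-coding genes. Of 10 genes that mark other cells, 3 had one, namely Col1a1 of fibroblasts and Mlana and Dct of melanocytes. Ly6a, which encodes the Sca-1 antigen the sort selected against, had none, and neither had Ptprc, Pecam1, Cdh5, Pdgfra, Myh6 or Myod1. Regions inside the gene separated the lists less clearly. They were present in 8 of 8 and in 6 of 10 genes, beside 67.0% of protein-coding genes, with 5 in the endothelial gene Pecam1 and 2 each in Cdh5 and Pdgfra. The median density around the 10 genes was 4.24 regions per 100 kb, beside 3.79 for all protein-coding genes and 5.36 for the 8 marker genes. The part of endothelial cells, fibroblasts or melanocytes in the regions described below was not tested.

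Nearly all desmosome genes were open at an end, and Dsg4 was the exception. An end peak was present at 9 of the 10 genes, beside 57.6% of all protein-coding genes. A region lay inside the bounds of all 10 genes, beside 67.0% of protein-coding genes. A region of at least 2000 bp reached into 4 of them (Dsc3, Dsg3, Dsp and Pkp3), beside 12.9% of protein-coding genes. Longer genes have more room for a region. The members have a median length of 33475 bp against 17169 bp, and these shares were not matched for length. At Dsc3 both ends had a peak, a state found at 8.14% of protein-coding genes, and the other 8 genes had a peak at one end only. Without a score, width is the only property of a region that can be compared, and these counts describe one list.

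The windows were also denser in regions than those of most genes. A window held between 6 regions at Dsg4 and 15 at Pkp1, with a median of 10, beside a median of 5 for all protein-coding genes. The members are longer than most genes, with a median length of 33475 bp against 17169 bp, so the number was also set against length. Per 100 kb of window the median was 7.15 regions, beside 3.79 for all protein-coding genes, and each of the 10 members lay above that gene median. Pkp3 was the densest with 10.7 per 100 kb, a value above that of 95.7% of protein-coding genes, and Pkp1 came next with 10.1. Dsg4 had the lowest density, 4.42 per 100 kb, which exceeded 57.7% of genes. Windows also hold regions of neighbouring genes, and those of the cadherin genes overlap. The share of a window's regions nearest to its own gene ran from 16.7% at Pkp3 to 90% at Dsp. It was 20% at Dsg3 and 37.5% at Dsc2.

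Coverage of the gene itself separated the members more widely. The median share of the gene body inside regions was 15.9%, beside 2.27% for all protein-coding genes. For the 8 marker genes of hair follicle stem cells and basal keratinocytes it was 12.7%, so high coverage was not particular to desmosome genes. For the 10 genes that mark other cells it was 2.48%. A set of 6 members lay at or above 13.8%. In falling order these were Pkp3 with 23.9%, Dsg3 with 23.2%, Pkp1 with 18.6%, Dsc3 with 18.5%, Jup with 18.1% and Dsp with 13.8%. The other 4 were all cadherin genes and lay far lower, with 4.57% at Dsc2, 4.38% at Dsg2, 2.52% at Dsg4 and 1.21% at Dsc1. Neighbours within each of these runs differ by amounts whose error is unknown, since there is 1 list. Dsc1 was the one member below the median of all protein-coding genes. All 4 plaque genes thus stood in the upper run, with a median of 18.4%, while the 3 desmocollins had a median of 4.57% and the 3 desmogleins one of 4.38%.

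**Figure D1:**
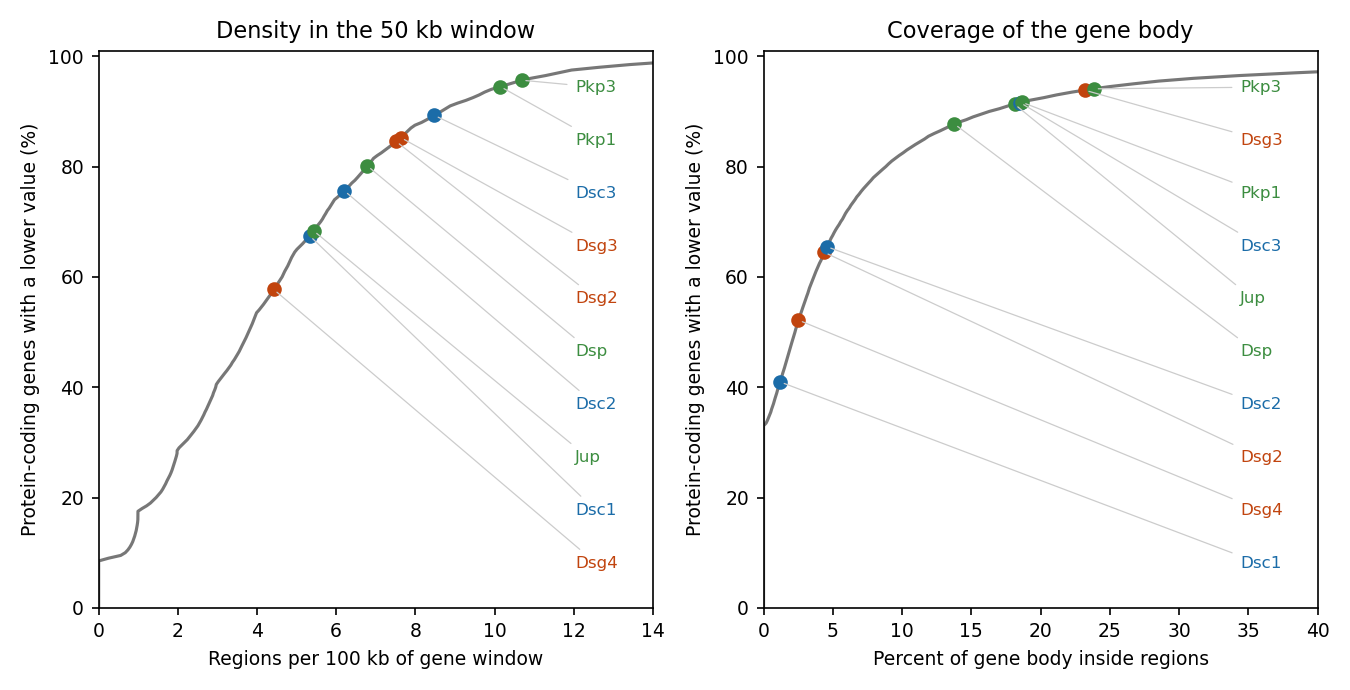
Grey curves give, over 21887 protein-coding genes, the percent of genes (vertical axis) that lie below each number of regions per 100 kb of gene window (left) or each percent of gene body inside regions (right), and points mark the 10 members (blue desmocollins, orange desmogleins, green plaque genes). On the left all members lie above the gene median of 3.79, and on the right Dsg4, Dsg2, Dsc2 and Dsc1 lie apart from the other members, at 4.57% or less.

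The 6 cadherin genes lie in one cluster on chromosome 18, in the order Dsc3, Dsc2, Dsc1, then the Dsg1 genes, Dsg4, Dsg3 and Dsg2, over 643.6 kb. Desmocollin and desmoglein genes are known to be transcribed in opposite directions, each away from the ground between them. The upper-coordinate end was open at all 3 desmocollins, and the lower-coordinate end at Dsg2 and Dsg3. Dsc3 was also open at its lower-coordinate end, and Dsg4 at neither. The gene table used here gives no strand for these genes, so which end holds the start was not read from the data. The windows of neighbours overlap, so that 18 of the 77 regions belong to more than 1 member (15 to 2 members and 3 to 3 members), and window counts of these genes are not independent. All 33 regions of the cadherin windows are counted once below.

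Dsg3, the desmoglein of the basal layers, carried the widest region of all 77. It measured 5628 bp, at chr18:20509519-20515146, covered the lower-coordinate end and ran far into the gene. Only 81 of the 74777 regions in the list were at least as wide. A second region of 2326 bp followed at chr18:20516826-20519151. These were the only regions inside Dsg3, so 23.2% of the gene body came from 2 regions near one end. The upper-coordinate end was 9655 bp from the nearest region.

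Dsc3, its desmocollin counterpart in the basal layers, held regions at both ends and between them, over 18.5% of its body. The upper-coordinate end lay in a region of 3082 bp at chr18:20000260-20003341, with a neighbour of 1917 bp at chr18:19998057-19999973. The lower-coordinate end lay in a region of 2251 bp at chr18:19958720-19960970, and a second one of 809 bp was also within 1000 bp of that end. Further regions of 702, 1641 and 421 bp lay inside. Dsc3 thus held 7 regions that share a base with its bounds, more than 93.9% of protein-coding genes. That was 16.9 per 100 kb of gene against 5 per 100 kb of its flanks. The region of 2251 bp lies mostly outside the gene but was counted inside only. The gene was the most open of the 6 cadherin genes by number of regions, and Dsg3 by coverage.

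Dsc2 and Dsg2, known for a wide range of epithelia and for heart muscle, had narrower end peaks. That of Dsc2 measured 991 bp at chr18:20058804-20059794, and the only other region in the gene measured 571 bp and lay toward the opposite end. That of Dsg2 measured 1287 bp at chr18:20557551-20558837 and shares 555 bp with the non-coding RNA gene Gm46630, so the peak cannot be given to Dsg2 alone. Dsg2 held 2 more regions, of 595 and 677 bp, and 2 of 737 and 1545 bp lay just below it, 6373 and 2751 bp from its bound. The 4 regions beyond its upper end, of 283 to 445 bp, lay inside another non-coding RNA gene, Gm16090, and all were narrower than the list median of 587 bp.

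Dsc1, known for the upper layers of the epidermis, had a single region inside its bounds, the end peak of 801 bp at chr18:20114395-20115195. It was the narrowest end peak of any member. Counted by midpoint, the 23.9 kb between Dsc2 and Dsc1 held 0 regions, whereas 2 lay in the 28.2 kb between Dsc3 and Dsc2. The end peaks of Dsc2 and Dsc3 reach in part into these intervals. Beyond the upper end of Dsc1 there were 4 regions of 466, 954, 1208 and 273 bp, between 26958 and 43031 bp away.

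Dsg4, the hair shaft desmoglein, had no region within 1000 bp of either bound. The nearest were 5021 bp inside the lower-coordinate bound and 5167 bp beyond the upper one. The first, of 899 bp at chr18:20441196-20442094, was the only region within the gene. Of the 6 regions in its window, 2 were those of Dsg3 described above. The 3 regions between Dsg4 and Dsg3 measured 413, 1274 and 1156 bp, and all 3 lay nearer to Dsg4.

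The Dsg1 genes, which are not among the 10 members, fill the middle of the cluster. Dsg1a and Dsg1b each had an end peak at the lower-coordinate end, of 1799 and 2405 bp. Dsg1c had none, and it lay in the longest stretch of the cluster without a region, 71.7 kb. Stretches at least that long made up 12.3% of those between neighbouring regions of the list, and 21.6% of protein-coding genes lay wholly inside one. The 3 Dsg1 genes are close copies of each other, and the handling of reads that match several places was not given in any source used here, so their values are uncertain. The cluster held 11 regions outside the windows of the members, the widest of 4247 bp at chr18:20187356-20191602, between Dsc1 and Dsg1c.

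**Figure D2:**
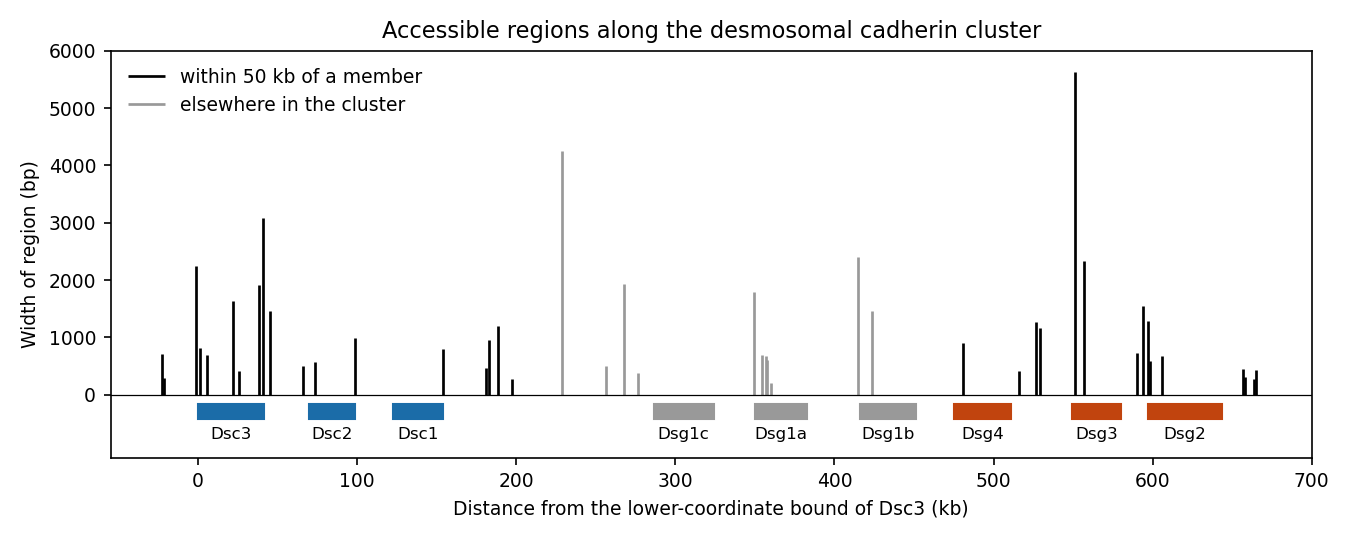
Each vertical line is an accessible region of the desmosomal cadherin cluster, placed by its distance from the lower-coordinate bound of Dsc3 (horizontal axis, kb) and as high as the region is wide (vertical axis, bp), with gene bodies as boxes below (blue desmocollins, orange desmogleins, grey Dsg1 genes, which are not members). The region of 5628 bp at Dsg3 stands highest, regions crowd at Dsc3, and Dsg4 has a single region within its bounds.

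The plaque genes lie on separate chromosomes and share no regions. They are described from the keratin anchor outward, through the armadillo protein plakoglobin, to the plakophilins.

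Dsp, the gene of desmoplakin, lies on chromosome 13 from 38151294 to 38198577 and held 5 regions, all in the part nearest its start. They measured 1226 bp (chr13:38151877-38153102), 645 bp (chr13:38153502-38154146), 951 bp (chr13:38158960-38159910), 2293 bp (chr13:38161107-38163399) and 1396 bp (chr13:38164384-38165779). The widest of the 5 was the fourth from the start, not the one at the gene end. Outside, 4 regions of 1025, 1099, 599 and 684 bp lay before the start, the nearest 5577 bp away, and 1 of 1055 bp lay at the neighbouring gene Snrnp48.

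Jup, the gene of plakoglobin, lies on chromosome 11 from 100368856 to 100397839 on the reverse strand and held 4 regions, all toward its start at the upper-coordinate end. From the start inward they measured 1687 bp (chr11:100396844-100398530), 1400 bp (chr11:100395065-100396464), 953 bp (chr11:100393497-100394449) and 1903 bp (chr11:100386425-100388327). The region at the start shares 415 bp with the non-coding RNA gene Gm12348. The lower-coordinate bound was 13147 bp from any region. The other 3 regions of the window lay at or in the neighbours Eif1, Hap1 and P3h4, in a window that holds 7 other protein-coding genes.

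RefSeq promoter windows, from 250 bases before to 50 after a start, were matched for 2 members, Dsp and Jup, and these 2 differed in whether the start itself was open. Both had a region within 1000 bp of the start, beside 58.3% of 17492 protein-coding genes of that table. The whole 300 bp window of Jup lay inside its end peak, as did 47.0% of 21263 such windows of protein-coding genes. No base of the window of Dsp lay in a region: the nearest began 583 bp after the start, inside the gene. Of all windows, 53.2% shared a base with a region, and 4.02% had one within 1000 bp of the start that did not touch the window, as Dsp had. The bases before the start are printed 5′ to 3′, with the motifs found in capitals, to set a start outside every region beside one inside a region. They cover chr13:38151044-38151293 on the forward strand for Dsp and chr11:100397840-100398040 on the reverse strand for Jup (RefSeq, GRCm38.p6), the latter stopping short of the most upstream annotated base of the gene.
Dsp: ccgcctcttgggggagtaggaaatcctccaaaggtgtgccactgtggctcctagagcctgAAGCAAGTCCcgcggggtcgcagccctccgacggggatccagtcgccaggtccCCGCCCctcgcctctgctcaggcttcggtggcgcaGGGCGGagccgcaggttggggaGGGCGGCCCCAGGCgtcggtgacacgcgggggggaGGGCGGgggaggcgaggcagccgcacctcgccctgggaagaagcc
Jup: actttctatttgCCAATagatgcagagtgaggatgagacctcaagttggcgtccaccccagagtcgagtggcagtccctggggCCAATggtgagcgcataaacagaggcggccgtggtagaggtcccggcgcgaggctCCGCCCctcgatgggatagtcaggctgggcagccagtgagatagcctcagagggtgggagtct
G and C made up 72.4% of the 250 bases of Dsp and 60.2% of the 201 bases of Jup, beside a median of 55.6% over the 250 bases before all starts. Over the same 250 bases Jup had 62.0%, above 69.3% of promoters, and Dsp stood above 91.7%. Among windows at least as rich as that of Dsp, 77.9% shared a base with a region.

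The capitals mark matches on either strand to 4 of the motifs searched. GGGCGG, bound by SP1 and KLF factors, matched 4 times before the start of Dsp and 2 times before that of Jup, of which 1 lies outside the bases printed. It was found in 42.6% of all promoters over the same 250 bases. CCAAT matched 2 times in Jup and 0 times in Dsp, and was found in 35.4% of promoters. In Dsp the AP-2 motif GCCNNNGGC matched 1 time, overlapping a GGGCGG, against 16.3% of promoters with a match, and a p53-family half-site 1 time, against 6.31%. Neither promoter held the forkhead motifs TGTTTAC or TGTTTGC (6.43% of promoters), the AP-1 motif TGANTCA (6.13%), TATAAA (11.6%), AGATAA (8.81%), CANNTG (62.8%) or CCGGAAG (8.98%). The shares count promoters with at least 1 match and were not matched for G and C content. In that content Dsp stood above 91.7% of promoters and Jup above 69.3%. These matches describe letters in this window only.

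Pkp1 and Pkp3 encode plakophilins, the armadillo proteins that cluster cadherins and desmoplakin at the plaque. Pkp1, on chromosome 1 from 135871394 to 135919207, held 8 regions, the most of any member. Its end peak of 1526 bp lay at the upper-coordinate end (chr1:135918374-135919899). The other 7 were spread along the gene and measured from 388 to 1918 bp, the widest at chr1:135899237-135901154. A further 3 regions of 1176, 830 and 1368 bp lay just below the lower-coordinate bound, the nearest 1735 bp away, and 3 of 958, 782 and 331 bp above the upper one. With 13 of its 15 regions nearest to Pkp1 itself, the window was mostly its own, and the widest of the 15, 1987 bp, lay in Lad1, a basement membrane anchor gene.

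Pkp3, on chromosome 7 from 141078229 to 141090511, is the shortest member, at 12283 bp. A region of 4562 bp covered its lower-coordinate end (chr7:141076264-141080825), and only 163 regions of the list were at least as wide. One more region of 334 bp lay inside. Its high density came largely from its neighbours, since 2 of the 12 regions in its window were nearest to Pkp3. The others lay nearest to B4galnt4, Sigirr, Ano9 or Ptdss2, among them the widest region between genes, 2992 bp at chr7:141046812-141049803.

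**Figure D3:**
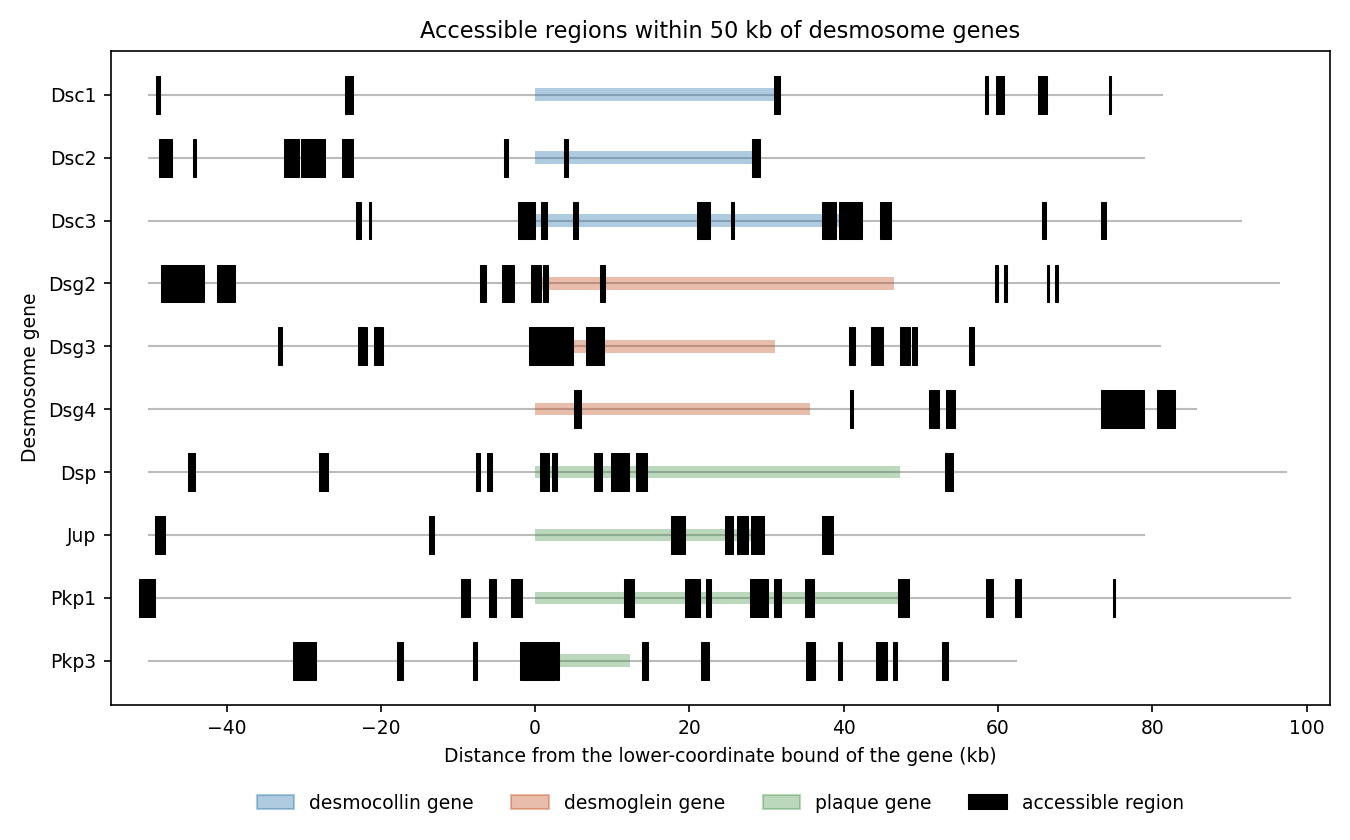
Each row is the window of 1 member, with its gene body as a coloured box starting at 0 (blue desmocollins, orange desmogleins, green plaque genes), grey flanks of 50 kb, and accessible regions as black blocks drawn to scale by their distance from the lower-coordinate bound (kb). Regions within Dsp and Jup sit toward the end with the end peak, those of Dsc3 and Pkp1 are spread along the gene, and Dsc1 and Dsg4 have 1 each.

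Within the genes, regions lay mostly on the side of the open end. Among the 8 members with a peak at one end only, 19 other regions lay inside 7 of the genes, and 15 of them (78.9%) were on that end's side of the gene's middle. The same share over all protein-coding genes with one open end was 56.8% of 19102 regions. All 4 such regions of Dsp, all 3 of Jup, both of Dsg2 and the single ones of Dsg3 and Pkp3 were on that side, as were 4 of 7 in Pkp1, while the one of Dsc2 was on the opposite side. This comparison was chosen after the positions had been seen. Both shares pool regions, several of them from the same gene, and were not matched for gene length or number of regions. Inside the bounds the density exceeded that of the flanks at 6 of the 10 genes, Dsc2, Dsc3, Dsp, Jup, Pkp1 and Pkp3. The share of all protein-coding genes for which this holds was not computed, so the count has no background. Regions across a bound were counted inside only, which raises the inside density most in short genes such as Pkp3. Pooled over all protein-coding genes and counted in the same way, the density was 4.10 per 100 kb inside the bounds and 4.12 in the flanks.

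The 77 regions were spread over kinds of places much as the whole list was, and their medians of width were larger in each of 3 places. Of the 77, 26.0% were within 1000 bp of a gene end, 42.9% elsewhere inside a gene and 31.2% between genes, beside 23.5%, 42.8% and 33.8% of the whole list. Places were set by all annotated genes, protein-coding or not, for the 77 regions and for the list. By midpoint, 81.8% lay over 1000 bp from every gene end (95% Wilson interval 71.8 to 88.8, which covers counting error only), beside 79.4%. Their median width was 954 bp (quartiles 596 and 1400 bp) against 587 bp, and 59 of 77 were at least as wide as that list median. At gene ends the median was 1247 bp against 1058 bp, inside genes 879 bp against 551 bp, and between genes 892 bp against 454 bp. Regions of at least 2000 bp numbered 7, or 9.09%, beside 4.94% of the list, and 6 of the 7 lay at or in Dsc3, Dsg3, Dsp or Pkp3.

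Among the places, the ends of the members themselves had the widest regions, with a median of 1526 bp over 11 regions (801 to 5628 bp), while the 9 at ends of other genes had one of 975 bp. The 24 regions inside members had a median of 952 bp, and the 9 inside other genes one of 539 bp. The plaque windows had a median of 1040 bp over 44 regions, the desmocollin windows 805 bp over 18 and the desmoglein windows 737 bp over 15.

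**Figure D4:**
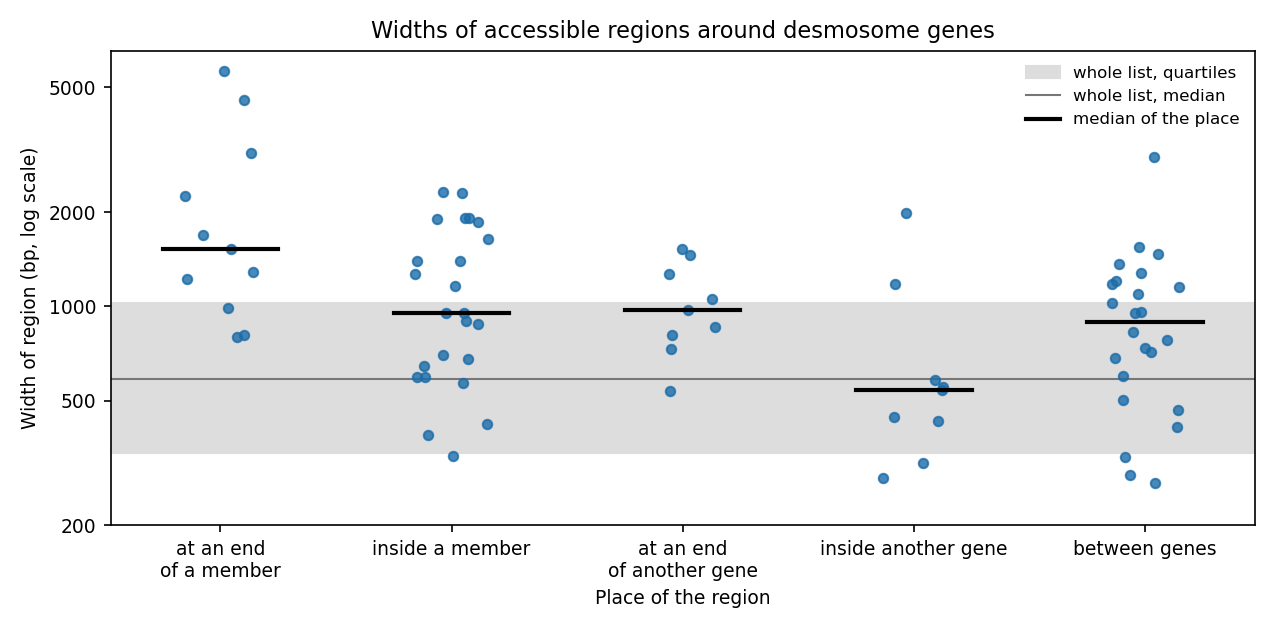
Widths of the 77 regions (vertical axis, bp, log scale) by the place of each region (horizontal axis), 1 point per region, with black bars for the median of each place and the grey line and band for the median and quartiles of the whole list. Regions at ends of members have the highest median, 1526 bp, and in 4 of the 5 places the median lies above that of the list, the exception being regions inside other genes.

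Other genes of the desmosome and its plaque partners were mostly open as well. Of 9 such genes, 8 had an end peak, beside 57.6% of protein-coding genes, Dsg1c being the one without. The 8 were Dsg1a, Dsg1b, the plakophilin genes Pkp2 and Pkp4, Perp, which encodes a membrane protein of desmosomes and is a known p63 target, the plakin genes Ppl and Evpl, and Cdsn, the gene of corneodesmosin in the upper epidermis. Their median was 5.28 regions per 100 kb of window and 5.29% of the gene body, both between the medians of the 10 members and of all protein-coding genes. Perp had 41.7% of its body inside regions, more than any of the 10 members, and Evpl had 1.80%.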

How the data were processed

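The members and lists were chosen with earlier results of these data known. The authors deposited 1 list of coordinates in bp for the whole series, with no other value. The tools named are bedtools, Bowtie2 and MACS2, and the build is mm10, per the submitters' processing notes. Versions, settings, filters, pooling and depth were not given in any source used here. Starts were converted to 1-based positions, and no region was filtered. Gene bounds came from RefSeq (GRCm38.p6, the same primary assembly as mm10), and all 10 members matched by symbol. All members were named, with the regions at their ends and the widest in each window and gene. Regions were counted when they shared at least 1 base with a window (50 kb beyond the bounds, or 1000 bp around a bound). The same measures were computed for all protein-coding genes, with Python 3.11.15 and pandas 2.3.3, and were checked against direct counting on made-up regions. Strand was known only through the promoter table. Unused columns of per-sample values numbered 0.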

Additional observations from a re-analysis of the deposited data

How the results depend on the processing

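Of 37 values recomputed with other windows, overlap rules or widths, 33 stayed close to those reported (counts, medians and widths within 1.5 times, the share away from gene ends within its interval) and 4 moved. Desmosome genes with a start peak fell from 2 to 1 with 500 bp around the start and also when regions were counted by midpoint, both times by the loss of Dsp. The median number of regions per window was 6.5 with 20 kb flanks, which are shorter, beside 3 for all protein-coding genes. With 2500 bp around gene ends, 63.6% of window regions lay away from them. A wider zone lowers this share for any set of regions, and no share of the whole list at 2500 bp was set beside it. End peaks were found at 7 to 9 members across these settings. Dsp lost its own at 500 bp, leaving 8 members, beside 54.4% of all protein-coding genes. Both Dsp and Dsg3 lost theirs by midpoint, leaving 7, beside 54.2%. The wide region of Dsg3 is centred 2058 bp inside the gene. With 2500 bp, and with only regions at least as wide as the list median, 9 members had an end peak, beside 63.5% and 51.6%. By midpoint Dsc3 kept the peak at its upper-coordinate end but not at its lower-coordinate end. Dsg4 had no end peak under any of the 4 other settings tried for it. No paired analysis was possible because the list holds no value per sample. Differences in depth along the list cannot be seen without read counts, so narrow or missing regions cannot be told apart from low depth.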
